A study of Mus musculus with 23 samples.

Results

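The comparison described here set mouse embryos that had stayed at the 1-cell stage against embryos that had cleaved to the 2-cell stage, both labelled Eif4enif1+/- (het) and both cultured for 24 h. Its members are 6 of the series' 23 samples, chosen by their labels alone: 3 arrested 1-cell libraries and 3 het 2-cell libraries, numbered 1 to 3 as in their titles. The other samples are 8 germinal vesicle oocyte libraries, not used here, 3 het 1-cell libraries, and 3 WT 1-cell and 3 WT 2-cell libraries, the last also after 24 h of culture. The WT 1-cell and het 1-cell embryos have no culture in their labels (treatment none). The WT libraries gave a scale of normal development. They also joined the fit of 12 libraries from which genes are called below, and formed the WT side of a difference of differences. The het 1-cell libraries entered only alternative fits. Whether Eif4enif1+/- names the embryo or its mother, how many embryos went into a library and whether libraries of a group had different mothers is not stated in the labels. A p-value here therefore reflects only how far the libraries in its fit scatter, technical scatter included. Lysed embryos went into a full-length mRNA amplification designed for small inputs, and no added RNA standard is named, so every level is a share of its library. In whole-embryo RNA, fewer cells of a type and less RNA per cell cannot be told apart.

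A mouse zygote begins with mRNA stored by the oocyte and transcribes little of its own. During the 1-cell and above all the 2-cell stage much of the stored mRNA is degraded, by deadenylation through the CCR4-NOT complex and its adaptor BTG4 among other routes, while the embryo's genome starts to be transcribed, with the Zscan4 and MERVL-linked genes early and genes for ribosomes, RNA processing and energy metabolism as the main wave. Eif4enif1 encodes 4E-T, an eIF4E-binding protein of cytoplasmic granules that hold stored and decaying mRNA.

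Eif4enif1 itself (gene ENSMUSG00000020454.17, chr11:3202392-3244588 on the mm10 build) was measured at 94.4, 26 and 50.5 CPM in the arrested libraries and 49.8, 36 and 39.1 CPM in the het 2-cell libraries. Here and below CPM (the unit of library-size-corrected counts) are scaled by edgeR's TMM over the 12 arrested, het 2-cell, WT 1-cell and WT 2-cell libraries. Arrested library 1 was the highest and arrested library 2 the lowest of the 6, so the groups overlapped (log2 fold change 0.45, SE 0.43, adjusted p = 0.565), and without arrested library 1 the sign turned (-0.13). The WT 1-cell libraries had 119, 134 and 158 CPM and the WT 2-cell libraries 68.8, 51.7 and 69.1 CPM.

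The 6 libraries held 16.06 to 31.89 M counts. They were not alike within a group. Across 8425 genes, the Spearman correlation of log2(CPM + 1) was 0.492 between arrested libraries 1 and 2, 0.732 between 1 and 3 and 0.752 between 2 and 3. Arrested library 1 correlated with the WT 1-cell libraries at 0.86 to 0.866, and arrested library 2 with het 2-cell library 1 at 0.805. Het 2-cell library 1 correlated at 0.78 and 0.737 with the others of its group, which correlated at 0.928 with each other. The corresponding range was 0.947 to 0.977 among WT 1-cell libraries and 0.95 to 0.967 among WT 2-cell libraries. Genes with at least 10 counts numbered 13674, 17357 and 19825 in the arrested and 21188, 20116 and 19366 in the het 2-cell libraries. Arrested library 1 and het 2-cell library 1 therefore stand apart, and the main counts below are also given without them.

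The labels were checked against defining transcripts. The summed level of 10 maternal-store markers was 21110, 7912 and 12410 CPM in the arrested libraries and 5604, 1621 and 1689 CPM in the het 2-cell libraries, against 17910 to 20630 CPM in WT 1-cell and 1489 to 2364 CPM in WT 2-cell embryos. The groups did not overlap in this sum (exact permutation test, two-sided, p = 0.1, the smallest that 3 against 3 allows). Btg4 alone made up 14760, 4556 and 8428 CPM of the arrested sums and 3301, 557 and 499 CPM of the het 2-cell sums. Of the 10 markers, 4 were higher in every arrested than in every het 2-cell library, and the others overlapped. The summed level of 8 zygotic 2-cell markers, by contrast, was 463.8, 1608 and 1133 CPM in the arrested and 1869, 1173 and 596.5 CPM in the het 2-cell libraries. Arrested library 1 lay near the WT 1-cell range of 364.8 to 430.8 CPM, and arrested libraries 2 and 3 lay above the WT 2-cell range of 612.1 to 944.3 CPM. The near-copies Zscan4c and Zscan4d made up 845 and 459.9 CPM of the sum in arrested library 2, and 472 and 189.5 CPM in library 3. In arrested library 1 the largest part was Tcstv1, at 255.7 CPM. Tcstv1 was itself higher in WT 1-cell (178.8 to 192 CPM) than in WT 2-cell embryos (28.05 to 52.55 CPM). The order of these sums thus depends on few genes. Among markers of other cells, granulosa or cumulus genes summed to 152.8, 206.6 and 198.4 CPM in the arrested and 133.3, 97.57 and 79.95 CPM in the het 2-cell libraries, against 799.6 to 879.4 CPM in WT 1-cell embryos. Serpine2 alone made up 123.3, 65.78 and 151.3 CPM of the arrested sums and 737.3 to 810.6 CPM of the WT 1-cell sums. Without it, an alternative chosen after seeing the data, the sums were 29.5, 141 and 47.1 CPM in the arrested and 49.3, 37.1 and 47.3 CPM in the het 2-cell libraries, so the groups overlapped. Their part in the results was not tested.

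Promoters of 6 genes are printed because they stand for the sets of transcripts that separate these libraries. Rfpl4, Obox5 and Obox1 are maternal transcripts that stayed high in the arrested embryos, Zscan4c and Zscan4f are early zygotic genes that divided the arrested libraries among themselves, and Fau encodes a ribosomal protein precursor that was low in every arrested library. Each run covers 250 bases before to 50 bases after the RefSeq start (GRCm38.p6, 5′ to 3′ along the gene). Capitals mark matches on either strand to CANGTG (the E-box), TATAAA, an inverted homeodomain-type repeat (TGAT and ATCA joined by NNA), GCCATNTT (the YY1 type) or CCGGAAG (the ETS type); no matches overlapped.
Rfpl4, chr7:5116862-5117161, minus strand: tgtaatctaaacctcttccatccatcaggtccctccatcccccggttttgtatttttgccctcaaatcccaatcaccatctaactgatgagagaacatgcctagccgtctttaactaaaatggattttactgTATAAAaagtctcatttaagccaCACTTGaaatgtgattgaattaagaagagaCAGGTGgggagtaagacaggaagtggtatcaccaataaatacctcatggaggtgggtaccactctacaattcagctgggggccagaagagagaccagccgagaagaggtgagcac
Obox5, chr7:15750120-15750419, plus strand: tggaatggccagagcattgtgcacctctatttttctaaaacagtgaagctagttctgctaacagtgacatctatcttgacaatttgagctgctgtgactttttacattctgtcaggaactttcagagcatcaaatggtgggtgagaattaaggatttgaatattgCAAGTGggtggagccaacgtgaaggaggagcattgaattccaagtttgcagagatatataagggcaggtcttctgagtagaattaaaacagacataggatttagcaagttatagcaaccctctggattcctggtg
Obox1, chr7:15547007-15547306, plus strand: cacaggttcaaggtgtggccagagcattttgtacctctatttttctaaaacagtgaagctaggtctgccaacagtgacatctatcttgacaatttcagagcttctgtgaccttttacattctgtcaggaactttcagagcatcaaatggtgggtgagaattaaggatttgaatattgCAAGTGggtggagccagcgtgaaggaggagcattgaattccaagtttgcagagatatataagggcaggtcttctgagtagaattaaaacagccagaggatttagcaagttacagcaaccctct
Zscan4c, chr7:11005495-11005794, plus strand: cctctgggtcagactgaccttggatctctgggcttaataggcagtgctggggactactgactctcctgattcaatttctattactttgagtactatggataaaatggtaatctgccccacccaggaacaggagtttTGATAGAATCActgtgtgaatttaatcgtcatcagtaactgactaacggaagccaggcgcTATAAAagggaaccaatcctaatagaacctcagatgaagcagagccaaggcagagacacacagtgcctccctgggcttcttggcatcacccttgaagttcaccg
Zscan4f, chr7:11397665-11397964, plus strand: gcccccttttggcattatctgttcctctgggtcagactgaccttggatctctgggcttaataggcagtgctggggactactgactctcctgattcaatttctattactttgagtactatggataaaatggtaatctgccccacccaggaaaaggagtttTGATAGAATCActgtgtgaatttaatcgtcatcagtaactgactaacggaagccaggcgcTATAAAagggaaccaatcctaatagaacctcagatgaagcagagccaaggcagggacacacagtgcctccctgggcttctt
Fau, chr19:6057697-6057996, plus strand: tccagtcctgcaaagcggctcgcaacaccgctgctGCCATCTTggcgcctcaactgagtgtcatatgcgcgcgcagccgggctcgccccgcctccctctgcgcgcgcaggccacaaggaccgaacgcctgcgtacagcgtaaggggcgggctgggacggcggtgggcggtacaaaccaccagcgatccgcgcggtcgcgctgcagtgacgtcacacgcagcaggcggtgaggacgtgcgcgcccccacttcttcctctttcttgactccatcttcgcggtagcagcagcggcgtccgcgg
The Obox5 and Obox1 runs share an identical stretch of 82 bases and the Zscan4c and Zscan4f runs a stretch of 127 bases, so reads of these near-copies may have been divided uncertainly between them. CANGTG was found in 37 of the 51 promoters held for the oocyte and maternal-effect list (72.5%), in 18 of 60 for cytosolic ribosomal proteins (30%) and in 44.8% of all 27025 promoters. The inverted repeat was found in 4 of 18 promoters of the 2-cell-stage list, all of the Zscan4 family, and in 0.233% of all promoters. TATAAA was present in 8 of the same 18 promoters (44.4%) and in 14.1% of all. CCGGAAG was present in 25 of 60 ribosomal protein promoters (41.7%) and 27 of 68 nucleolar ones (39.7%), and in 9.08% of all, while GCCATNTT was present in 13 of the 60 (21.7%) and in 6.22% of all. Near-copies are not independent promoters, and these matches are descriptions of letters only.

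Which transcripts separate arrested from cleaved het embryos was tested in the 6 libraries alone. No gene of 19474 passed an adjusted p of 0.05 in edgeR's quasi-likelihood test (0% called). The smallest adjusted p was 0.259, and 2778 genes had an unadjusted p under 0.05, of which 1175 were higher and 1603 lower in arrested embryos. DESeq2 on the same 6 libraries called 1335 genes, 573 higher (1.74%) and 762 lower (2.32%). When the 6 WT libraries joined the fit and lent their spread to the estimate, edgeR called 1271 of 22730 genes (5.59%), 500 higher (2.2%) and 771 lower (3.39%). Of those, DESeq2 shared 373 of the higher genes (74.6%; 65.1% of its own) and 559 of the lower genes (72.5%; 73.4% of its own). Every "called" below refers to this fit of 12 libraries; the fit of 6 libraries, chosen as the main one, called none of these genes.

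The 12-library count moved with the libraries that stand apart. Without arrested library 1 it was 258 higher (1.04%) and 678 lower (2.74%). Without het 2-cell library 1 it was 1106 higher (4.55%) and 1266 lower (5.2%), and without both it was 1235 higher (5.1%) and 1941 lower (8.01%). List counts below that leave out a library are to be read against the shares of the same fit. A fit that also held the 3 het 1-cell libraries called 1986 genes (8.4%), 910 higher (3.85%) and 1076 lower (4.55%). Het 1-cell libraries 1 and 3 had an unlike count profile. Their 100 most abundant genes held 6.34% and 5.53% of counts, against 28.97% to 53.07% in the other embryo libraries. Calls said below to be lost in the fit of 15 libraries carry this limit. Of the 500 higher and 771 lower genes, 447 (89.4%) and 750 (97.3%) were called again without both, and 235 (47%) and 469 (60.8%) without arrested library 1 alone.

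On a scale made from WT embryos, the arrested libraries took different places from each other, and all of them fell short of the het 2-cell libraries. It used 2 sets of genes: 2252 genes were over 4-fold lower in WT 2-cell than in WT 1-cell embryos (cleared genes) and 3318 over 4-fold higher (gained genes), at an adjusted p under 0.05 and with a mean level no lower than 10 CPM. For cleared genes the median share of the WT change was 20.8%, 62.8% and 45.3% in the arrested libraries and 71.8%, 94% and 101% in the het 2-cell libraries. For gained genes it was -1.43%, 69.1% and 47.9% in the arrested and 77.5%, 98.2% and 102% in the het 2-cell libraries. No arrested library reached any het 2-cell library on either measure (exact permutation test, two-sided, p = 0.1 for each, the smallest possible). In arrested library 1 the median of gained genes lay at the WT 1-cell level, whereas arrested library 2 lay close to het 2-cell library 1.

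**Figure D1:**
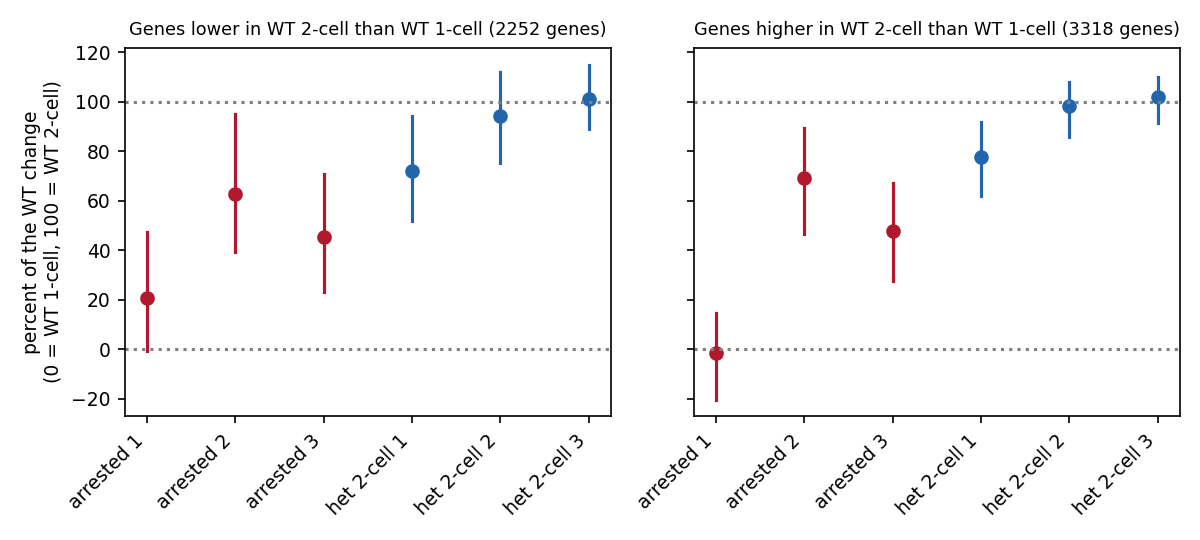
Median share of the WT 1-cell to 2-cell change in each het library (points; lines run from the lower to the upper quartile of the genes), for cleared genes on the left and gained genes on the right; 0 is the WT 1-cell and 100 the WT 2-cell mean of log2(CPM + 1). Arrested library 1 sits at 20.8% and -1.43%, the other arrested libraries at 45.3% to 69.1%, and the het 2-cell libraries at 71.8% to 102%.

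As a share of all CPM, cleared genes made up 34.6%, 17.2% and 21.3% of the arrested libraries and 13.3%, 5.17% and 4.88% of the het 2-cell libraries, against 50.3% to 50.9% in WT 1-cell and 5.16% to 7.35% in WT 2-cell embryos. Gained genes made up 5.86%, 25% and 15.3% of the arrested and 27.4%, 37.2% and 41.3% of the het 2-cell libraries, against 2.57% to 2.82% in WT 1-cell and 38.9% to 43.8% in WT 2-cell embryos. By this summed level arrested library 1 was above every WT 1-cell library, although its median gained gene was not. Of the 2234 cleared genes tested in the 6 libraries, 399 were called higher in arrested embryos (17.9%) and 3 lower, where 2.55% of all genes tested were called higher. Of 3316 gained genes, 434 were called lower (13.1%) and 0 higher, where 3.82% of all were called lower. The lists and this fit share the WT libraries, which may raise the share of calls within the lists. DESeq2 on the 6 het libraries alone called 360 cleared genes higher and 1 lower, and 396 gained genes lower and 0 higher. It called 1.74% of all its genes higher and 2.32% lower. Cleared genes accounted for 80.4% of the 496 genes called higher, and gained genes for 58.3% of the 744 called lower. With arrested library 1 left out, 200 cleared genes were called higher and 419 gained genes lower; with het 2-cell library 1 left out as well, 697 and 1110.

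Stored oocyte transcripts were among the higher genes. Of 64 oocyte and maternal-effect genes tested, 10 were called higher and 0 lower, where 2.55% of all genes were called higher and 3.82% lower. The calls were 6 and 0 without arrested library 1, 19 and 1 without het 2-cell library 1, and 18 and 4 without both. In the fit without both, 5.1% of all genes were called higher and 8.01% lower. In all, 20 were higher in every arrested than in every het 2-cell library (31.2% against 11.1% of all genes), and their median log2 fold change was 1.09 against -0.07 over all genes in the fit of 6 libraries. The median fell to 0.58 without arrested library 1. H1foo, the oocyte form of linker histone H1 (chr6:115944938-115950236), was at 2294, 1563 and 273 CPM in the arrested libraries and 95.5, 48.3 and 31.8 CPM in the het 2-cell libraries. Its lowest arrested library was above its highest cleaved one (log2 fold change 4.56, SE 0.75, adjusted p = 0.0219). The WT 1-cell libraries had 5329, 5551 and 6302 CPM, so each arrested library had less H1foo than each WT 1-cell library. Bcl2l10, an oocyte member of the BCL2 family, was at 7808, 4076 and 1107 CPM in the arrested libraries and 389, 146 and 130.1 CPM in the het 2-cell libraries, again with no overlap (log2 fold change 4.29, SE 0.73, adjusted p = 0.0219; 0.0678 in the fit of 15 libraries). Dazl, an RNA-binding protein of germ cells, had 1114, 476 and 293 CPM in the arrested libraries and 115, 82.5 and 51.5 CPM in the het 2-cell libraries (log2 fold change 2.92, SE 0.51). Oosp3, an oocyte-secreted protein gene, was at 1176, 446 and 559.9 CPM in the arrested libraries and 196, 41.4 and 77.8 CPM in the het 2-cell libraries, a call lost in the fit of 15 libraries (adjusted p = 0.0836).

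Other stored transcripts varied more. Btg4, the adaptor that brings the deadenylase to maternal mRNA, was at 14760, 4556 and 8428 CPM in the arrested libraries and 3301, 557 and 499 CPM in the het 2-cell libraries, above WT 1-cell levels (8132, 5622 and 5871 CPM) in arrested libraries 1 and 3, and it missed the threshold (adjusted p = 0.0505). Gdf9, an oocyte growth factor, was at 447, 359 and 516 CPM in the arrested and 342, 279 and 145 CPM in the het 2-cell libraries, where WT 1-cell embryos had 1681, 2283 and 3291 CPM. Mos, the kinase that holds the egg in metaphase of meiosis II, was at 4.21, 0.893 and 7.72 CPM in the arrested libraries against 59.5, 126 and 211 CPM in WT 1-cell embryos. All 6 het libraries were below every WT 1-cell library for Gdf9 and Mos, and neither gene was called (adjusted p = 0.257 and 0.371).

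The oocyte homeobox family held 4 of the 5 embryo transcription factor genes called higher, of 41 tested (2.55% of all genes were called higher). None of the 41 was called lower in that fit, but 3 were without arrested library 1, 2 without het 2-cell library 1, 4 in the fit of 15 libraries, and 11 without both doubted libraries, against 7 higher. In the fit without both, 8.01% of all genes were called lower and 5.1% higher. Obox5 was at 10930, 2191 and 2892 CPM in the arrested libraries and 571, 137 and 191 CPM in the het 2-cell libraries. Obox1 was at 7097, 2095 and 1135 CPM in the arrested libraries and 260.4, 95.5 and 99 CPM in the het 2-cell libraries, and Obox2 at 4484, 1963 and 682 CPM in the arrested libraries and 186, 96.6 and 66.2 CPM in the het 2-cell libraries. For each of the 3 genes, arrested library 1 was the highest and the groups did not overlap (log2 fold changes 4.15, 4.50 and 4.35; adjusted p = 0.0219 for each). Obox7 had 609, 193 and 179 CPM in the arrested libraries and 29.5, 13.5 and 16.7 CPM in the het 2-cell libraries (log2 fold change 4.04, SE 0.58, adjusted p = 0.0207). These genes lie in 1 cluster on chromosome 7 and are near-copies, so they are not independent. Rfpl4 (chr7:5109787-5116950), a RING-finger protein gene of oocytes, was at 7412, 2141 and 1902 CPM in the arrested libraries and 230, 66.3 and 86.7 CPM in the het 2-cell libraries (log2 fold change 4.90, SE 0.72, adjusted p = 0.0207). Het 2-cell library 1 was the highest of the cleaved libraries for Rfpl4 and for each of these 4 Obox genes.

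**Figure D2:**
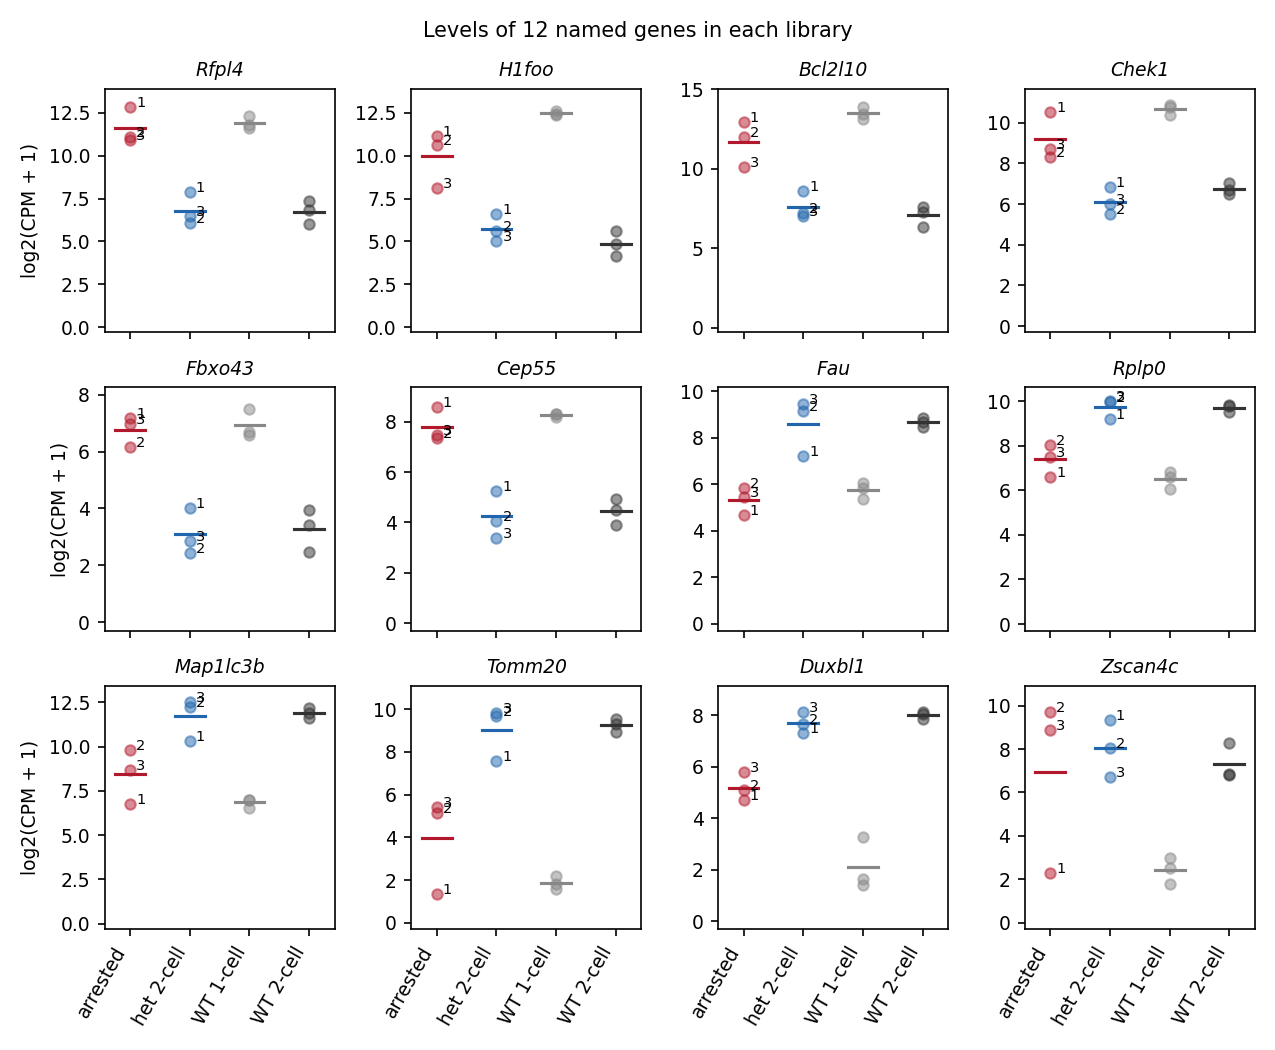
Level of 12 named genes as log2(CPM + 1) in each library (points, het libraries numbered) with the group mean (bars), for arrested, het 2-cell, WT 1-cell and WT 2-cell embryos. Rfpl4, H1foo, Bcl2l10, Chek1, Fbxo43 and Cep55 were high in all 3 arrested libraries, Fau, Rplp0, Map1lc3b, Tomm20 and Duxbl1 low in all 3, and Zscan4c was low in arrested library 1 and in the WT 1-cell libraries but not in arrested libraries 2 and 3.

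Among the other highest changes were genes with general cellular roles. Med30, a Mediator subunit, had 933, 344 and 272 CPM in the arrested libraries and 39.2, 10.3 and 8.66 CPM in the het 2-cell libraries (log2 fold change 4.74, SE 0.71, adjusted p = 0.0207). Dph6, which acts in diphthamide synthesis on elongation factor 2, had 1543, 269 and 374 CPM in the arrested libraries and 44.2, 35.2 and 28.3 CPM in the het 2-cell libraries. Both stood above every cleaved library by a wide margin, as did Trappc2, a vesicle-tethering subunit, at 1166, 288 and 292 CPM in the arrested libraries and 48.9, 27.2 and 21.6 CPM in the het 2-cell libraries. Zfp735, a zinc-finger gene, gave the highest log2 fold change of the named genes (5.61, SE 1.08), from 363, 66.8 and 73.9 CPM in the arrested libraries and 8.11, 0.261 and 1.93 CPM in the het 2-cell libraries. Slbp, which binds the stem-loop of histone mRNA, was at 12930, 2511 and 2309 CPM in the arrested libraries and 624, 418 and 541 CPM in the het 2-cell libraries (log2 fold change 3.49, SE 0.63, adjusted p = 0.0219; 0.0852 in the fit of 15 libraries). Its level in arrested library 1 was above the WT 1-cell range of 10500, 6923 and 7200 CPM.

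Genes of the cell division machinery did not move as a group. Of 59 meiosis and M-phase genes tested, 3 were called higher and 2 lower, with a median of -0.04; under DESeq2's size factors in edgeR that median was 0.03. Of 66 spindle, kinetochore and cohesin genes, 4 were called higher and 6 lower, where 2.55% of all genes were called higher and 3.82% lower. Without both doubted libraries the counts were 5 and 8 for the first list and 4 and 11 for the second, where 5.1% and 8.01% of all genes were called. Without arrested library 1 they were 2 and 3 for each, where 1.04% and 2.74% of all genes were. Fbxo43 (EMI2, an inhibitor of the anaphase-promoting complex) was at 145, 70.3 and 123 CPM in the arrested libraries and 15, 4.39 and 6.22 CPM in the het 2-cell libraries (log2 fold change 3.72, SE 0.61, adjusted p = 0.0219). The arrested range overlapped that of the WT 1-cell libraries, at 94.1, 102 and 179 CPM. Map2k1 (MEK1), upstream of MAP kinase, had 298, 122 and 136 CPM in the arrested libraries and 50.8, 40.1 and 27.8 CPM in the het 2-cell libraries, and Cep55, an abscission factor, had 382, 164 and 176 CPM in the arrested libraries and 37.2, 15.8 and 9.44 CPM in the het 2-cell libraries (log2 fold change 3.53, SE 0.57, adjusted p = 0.0219). Nuf2, of the outer kinetochore, had 675, 197 and 154 CPM in the arrested libraries and 46, 31.2 and 22.7 CPM in the het 2-cell libraries. In the other direction, Prc1, which bundles midzone microtubules, was at 123, 65 and 61.6 CPM in the arrested libraries and 189, 317 and 415 CPM in the het 2-cell libraries, below every het 2-cell library and below the WT 1-cell libraries at 684, 766 and 539.7 CPM (log2 fold change -1.89, SE 0.40, adjusted p = 0.0257). Cdca8 (borealin, of the chromosomal passenger complex) had 118, 106 and 57.6 CPM in the arrested libraries and 229, 325 and 362 CPM in the het 2-cell libraries, and Anapc11, the RING subunit of the anaphase-promoting complex, had 32.1, 33.1 and 27.2 CPM in the arrested libraries and 60.1, 153 and 117 CPM in the het 2-cell libraries.

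The core M-phase kinase genes were looked at after their values were seen, being outside the naming rule. Ccnb1 (cyclin B1) was at 3736, 1054 and 615 CPM in the arrested libraries and 730.3, 1206 and 1498 CPM in the het 2-cell libraries, with no separation of the groups. Cdk1 was at 6.32, 101 and 46.7 CPM in the arrested libraries and 199, 279 and 430.1 CPM in the het 2-cell libraries. All arrested libraries were below all het 2-cell libraries for Cdk1, with arrested library 1 lowest, yet the gene missed the threshold (log2 fold change -2.56, SE 0.77, adjusted p = 0.067; 0.0468 in the fit of 15 libraries). The adjusted p of Ccnb1 was 0.502. Cdc25c, the phosphatase that activates CDK1, was at 2.03, 56 and 19.5 CPM in the arrested libraries and 48.8, 61.9 and 84.1 CPM in the het 2-cell libraries (adjusted p = 0.396).

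Of 51 DNA damage genes, 2 were called higher and 2 lower; of 59 DNA replication genes, 1 and 1, shares near or below those of all genes (2.55% and 3.82%). Without both doubted libraries the counts were 3 and 5 for DNA damage and 2 and 11 for replication, where 5.1% and 8.01% of all genes were called. Without het 2-cell library 1 they were 4 and 4 for each, where 4.55% and 5.2% of all genes were. No replication gene was called without arrested library 1. Chek1, the checkpoint kinase that restrains entry into mitosis, was at 1478, 314 and 413 CPM in the arrested libraries and 113, 44.1 and 63.5 CPM in the het 2-cell libraries. All 3 arrested libraries exceeded all cleaved ones (log2 fold change 3.32, SE 0.60, adjusted p = 0.0219), and the WT 1-cell libraries had 1838, 1708 and 1332 CPM. Atr, the kinase upstream of Chek1, was low but followed the same order at 11.6, 28 and 7.9 CPM in the arrested libraries and 3.7, 2.35 and 2.62 CPM in the het 2-cell libraries. Fancd2, of the Fanconi anaemia pathway, had 1.54, 0.423 and 1.87 CPM in the arrested libraries and 4.5, 18.1 and 12.6 CPM in the het 2-cell libraries, where WT 1-cell embryos had 19, 24.5 and 29.4 CPM. Mcm7, of the replicative helicase, was at 10.3, 12.7 and 9.52 CPM in the arrested libraries and 25.2, 36 and 33.9 CPM in the het 2-cell libraries; its call was lost without arrested library 1 (adjusted p = 0.061). Asf1a, a histone chaperone, was higher in arrested embryos at 759, 318 and 219 CPM in the arrested libraries and 147, 135 and 131 CPM in the het 2-cell libraries, and its call too was lost without that library (adjusted p = 0.11) and in the fit of 15 libraries (0.133).

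Transcripts of the enzymes that clear maternal mRNA were present in arrested embryos, and 3 of 56 decay factors were called higher and 1 lower, where 2.55% and 3.82% of all genes were. The counts were 7 and 4 without het 2-cell library 1, where 4.55% and 5.2% of all genes were called. They were 7 and 8 without both doubted libraries, where 5.1% and 8.01% of all genes were. Cnot6l, a deadenylase subunit of CCR4-NOT, had 344, 103 and 158 CPM in the arrested libraries and 55.7, 26.5 and 35 CPM in the het 2-cell libraries (log2 fold change 2.37, SE 0.51, adjusted p = 0.0272). Cnot4, an E3 ligase associated with the complex, had 168, 31.8 and 70.3 CPM in the arrested libraries and 15.5, 12.6 and 14.9 CPM in the het 2-cell libraries. Both are themselves maternal transcripts that were at 34.6, 25.6 and 50.5 CPM and 15.6, 17.9 and 18 CPM in WT 2-cell embryos. Ythdf2, the reader of m6A that promotes decay, was lower at 44.4, 106 and 83.8 CPM in the arrested libraries and 135, 238 and 352 CPM in the het 2-cell libraries. Among 42 genes of mRNA storage and 3′-end control, 3 were called higher, including Elavl2, an RNA-binding protein, at 159.5, 154 and 151 CPM in the arrested libraries and 56.6, 34.8 and 41.3 CPM in the het 2-cell libraries, and 1 was called lower, the poly(A) polymerase gene Papola at 39.3, 81.2 and 95.8 CPM in the arrested libraries and 145, 375 and 356 CPM in the het 2-cell libraries. The Ythdf2 call was lost without arrested library 1 (adjusted p = 0.088).

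Genes for ribosomes were low in the arrested embryos. Of 81 cytosolic ribosomal protein genes tested, 33 were called lower and 0 higher, where 3.82% and 2.55% of all genes were. In all, 54 were lower in every arrested than in every het 2-cell library (66.7% against 17.7% of all genes). Their median log2 fold change was -2.54, against -0.07 over all genes. Without arrested library 1, 25 were called lower; without het 2-cell library 1, 59; and without both, 72. Fau (chr19:6057844-6059524), whose product is cleaved to ribosomal protein S30, was at 24.5, 56.7 and 43.2 CPM in the arrested libraries and 146, 569 and 695 CPM in the het 2-cell libraries (log2 fold change -3.50, SE 0.56, adjusted p = 0.0219). The 3 arrested libraries lay below the lowest cleaved library, which was library 1, and arrested library 2 was the highest of them. Rplp0, of the ribosomal stalk, had 97.5, 266 and 178 CPM in the arrested libraries and 586, 1003 and 1042 CPM in the het 2-cell libraries, and Rps10 had 20.02, 37.3 and 24.5 CPM in the arrested libraries and 64.4, 179.7 and 213 CPM in the het 2-cell libraries. The WT 1-cell libraries held 65.8, 56.4 and 40.39 CPM of Fau, so arrested library 1 was below all of them. The whole list, however, summed to 3038, 5832 and 3416 CPM in the arrested and 2271 to 2614 CPM in the WT 1-cell libraries. Its median log2(CPM + 1) minus the WT 2-cell mean was -4.57, -1.82 and -2.77 in the arrested libraries. In the WT 1-cell libraries it was -4.82 to -4.23. Arrested libraries 2 and 3 were thus above the WT 1-cell range by both measures, and library 1 by the sum only. Short transcripts of this family have many pseudogenes, and how multi-mapping reads were counted is not stated in those sources that were read.

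Ribosome assembly, RNA synthesis, translation and protein turnover followed the same direction between arrested and het 2-cell libraries. Against the WT 1-cell libraries they did not all lie alike. By the same median against the WT 2-cell mean, RNA polymerase II and spliceosome genes were at -1.97, -1.2 and -1.77 in the arrested libraries. The WT 1-cell libraries were at -0.729 to -0.547. Proteasome genes were at -2.01, -1.67 and -1.8 in the arrested and -1.25 to -0.937 in the WT 1-cell libraries. For nucleolar genes and translation factors the arrested and WT 1-cell ranges overlapped. Of 77 nucleolar and ribosome assembly genes, 23 were called lower and 0 higher (median -1.69). In every arrested library 45 were lower than in every het 2-cell library, as were 17.7% of all genes. The lower count was 16 with DESeq2, 16 without arrested library 1 and 37 without both doubted libraries, and 3.82% of all genes were called lower. Rpf1, a factor for the large subunit, was at 32.4, 30.0 and 32.9 CPM in the arrested libraries and 84.8, 177 and 282 CPM in the het 2-cell libraries. The arrested values were close together and below those of the WT 1-cell (184, 187 and 134 CPM) and WT 2-cell libraries as well (log2 fold change -2.51, SE 0.43, adjusted p = 0.0219). Nmd3, the export adaptor of the large subunit, was at 82.7, 97.3 and 91.8 CPM in the arrested libraries and 183, 423 and 377 CPM in the het 2-cell libraries (log2 fold change -1.85, SE 0.38). Nip7 had 97.2, 88 and 53.9 CPM in the arrested libraries and 174, 342 and 544 CPM in the het 2-cell libraries and Ebna1bp2 36, 89.5 and 47.7 CPM in the arrested libraries and 169, 411 and 369.9 CPM in the het 2-cell libraries; both act in rRNA processing. Of 64 RNA polymerase II and spliceosome genes, 15 were called lower and 0 higher (median -1.39). DESeq2 called 7 lower, and the fit without both doubted libraries 27 lower and 2 higher. Sf3b6, of the U2 particle, had 9.32, 26.4 and 30.4 CPM in the arrested libraries and 85.3, 314 and 316 CPM in the het 2-cell libraries (log2 fold change -3.44, SE 0.57, adjusted p = 0.0219), and Polr2k, a polymerase subunit, had 2.27, 15.6 and 13.1 CPM in the arrested libraries and 30.1, 152 and 207 CPM in the het 2-cell libraries. The TATA-binding protein gene Tbp was also lower at 30.8, 73.8 and 61.4 CPM in the arrested libraries and 165, 182 and 287 CPM in the het 2-cell libraries. Each of these 3 genes was below the cleaved range in all arrested libraries.

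Of 40 proteasome genes, 11 were called lower and 0 higher (median -1.25), a count that was 11 without arrested library 1 and 22 without both doubted libraries. Psma3, a subunit of the core particle, was at 20.9, 37.1 and 33.8 CPM in the arrested libraries and 89.7, 296 and 323 CPM in the het 2-cell libraries (log2 fold change -2.95, SE 0.48, adjusted p = 0.0219), and Adrm1, a ubiquitin receptor, at 14, 25.8 and 26.1 CPM in the arrested libraries and 83.6, 125 and 140.3 CPM in the het 2-cell libraries. Among 55 translation factors, 9 were called lower and 1 higher (median -1.17), where 3.82% and 2.55% of all genes were. The lower count was 3 with DESeq2, 6 without arrested library 1, 15 without het 2-cell library 1 and 22 without both. The higher gene was Eif4e3, a cap-binding protein of the eIF4E family, at 327, 167 and 169 CPM in the arrested libraries and 60.3, 23.3 and 30.7 CPM in the het 2-cell libraries (log2 fold change 2.54, SE 0.46, adjusted p = 0.0219). Its relative Eif4e2 moved the other way, at 8.35, 48.1 and 14.6 CPM in the arrested libraries and 67.5, 225 and 187 CPM in the het 2-cell libraries, and its call was lost without arrested library 1 (adjusted p = 0.052). Eif3b, a subunit of the initiation factor eIF3, was low throughout at 3.16, 1.08 and 2.12 CPM in the arrested libraries and 10.1, 25.7 and 22.3 CPM in the het 2-cell libraries. Of 21 MYC network genes, 2 were called lower and 0 higher (median -1); Nme1, a nucleoside diphosphate kinase gene, was at 8.11, 40.3 and 20.4 CPM in the arrested libraries and 52.7, 223 and 283 CPM in the het 2-cell libraries.

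**Figure D3:**
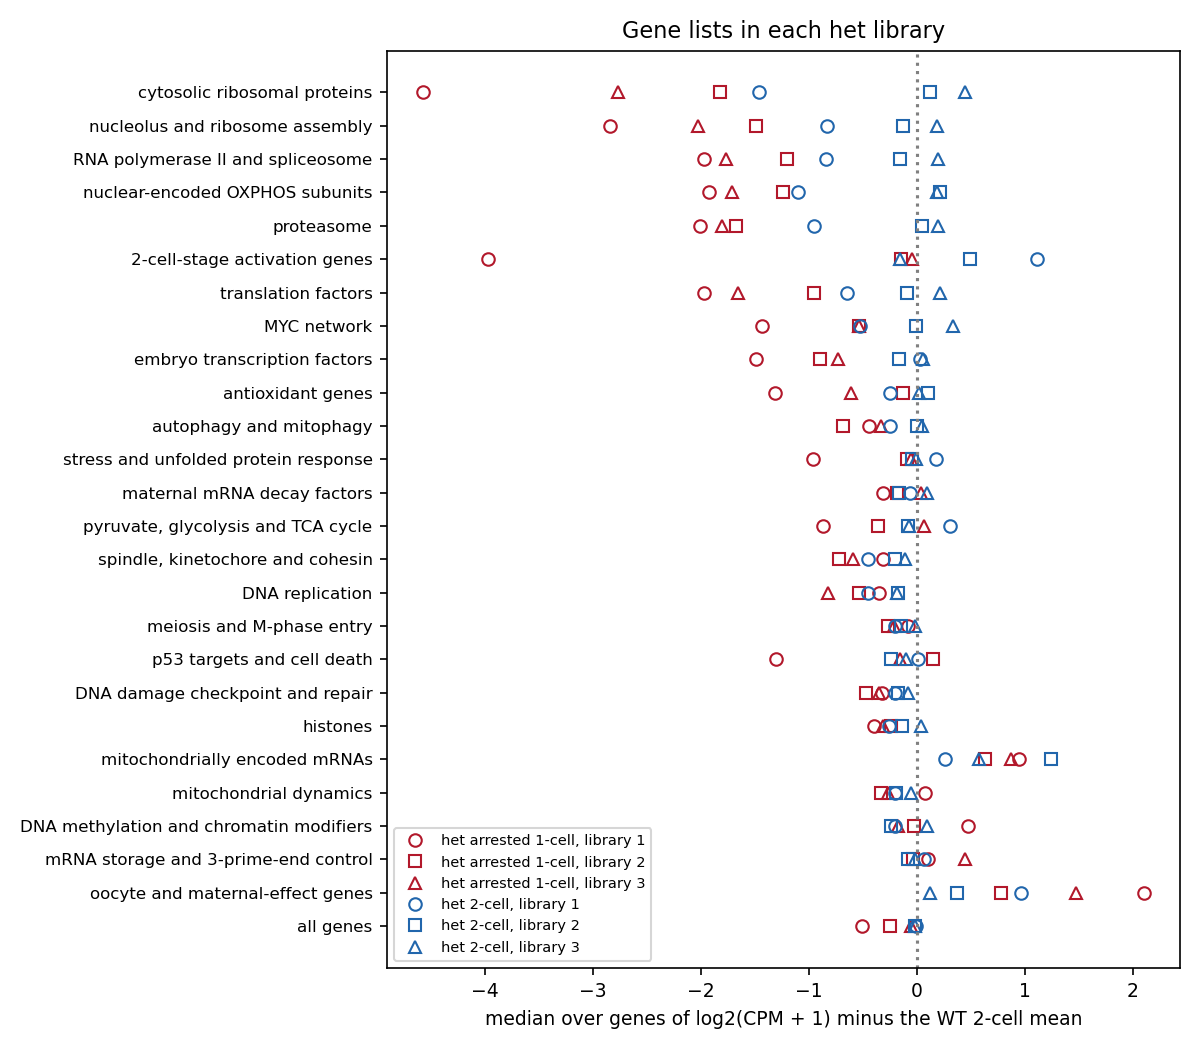
Median over the genes of each list of log2(CPM + 1) minus the WT 2-cell mean, for arrested (red) and het 2-cell (blue) libraries 1 to 3, with all genes at the bottom; lists run from the lowest to the highest median log2 fold change in the 6-library fit. For cytosolic ribosomal proteins the arrested libraries lie at -4.57, -1.82 and -2.77 and the het 2-cell libraries at -1.46, 0.12 and 0.45.

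Mitochondrial transcripts were of 2 kinds. The 13 mRNAs encoded by mitochondrial DNA did not separate the groups: none was called, the groups overlapped for every gene, and the median log2 fold change was 0.16. All mitochondrially encoded transcripts together made up 15.7%, 16.2% and 17.3% of counts in the arrested and 14.5%, 19.8% and 13.6% in the het 2-cell libraries (exact permutation test, two-sided, p = 0.9), against 2.35% to 2.58% in WT 1-cell and 9.23% to 10.2% in WT 2-cell embryos. Every arrested and het 2-cell library was thus above all WT libraries, including arrested library 1, whose nuclear transcripts otherwise resembled the WT 1-cell libraries. The het 1-cell libraries, with no culture in their labels, had 0.439%, 3.68% and 0.336%. Libraries 1 and 3 of that group are those with the unlike count profile. Nuclear-encoded OXPHOS subunits, by contrast, were called lower for 10 of 76 genes and higher for 0 (median -1.33), where 3.82% of all genes were called lower. The lower count was 25 without het 2-cell library 1 and 35 without both doubted libraries. Uqcrq, of complex III, was at 5.67, 8.79 and 11.8 CPM in the arrested libraries and 24.6, 245 and 144 CPM in the het 2-cell libraries (log2 fold change -3.97, SE 0.69, adjusted p = 0.0219). Ndufs7, of complex I, had 0.973, 3.29 and 1.12 CPM in the arrested libraries and 9.89, 47.4 and 32.4 CPM in the het 2-cell libraries, and Uqcr11, also of complex III, had 5.11, 4.75 and 5.54 CPM in the arrested libraries and 12.1, 50.5 and 48.8 CPM in the het 2-cell libraries. Tomm20, the import receptor of the outer membrane, was at 1.54, 34.4 and 41.5 CPM in the arrested libraries and 190.4, 818 and 907 CPM in the het 2-cell libraries (log2 fold change -4.62, SE 0.95, adjusted p = 0.0253), and Tefm, the mitochondrial transcription elongation factor, at 0, 0.094 and 0.747 CPM in the arrested libraries and 1.6, 75.1 and 44.9 CPM in the het 2-cell libraries. In both genes het 2-cell library 1 was the lowest cleaved library, and for Tefm it was nearer to the arrested than to the other cleaved libraries.

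Of 43 mitochondrial dynamics genes, 3 were called higher and 1 lower, where 2.55% and 3.82% of all genes were. Without arrested library 1 the counts were 1 and 1, and without both doubted libraries 5 and 3. In the fit without both, 5.1% of all genes were called higher and 8.01% lower. The lower gene was Crls1, cardiolipin synthase, at 22.9, 24.7 and 33.7 CPM in the arrested libraries and 42.8, 132 and 101 CPM in the het 2-cell libraries (log2 fold change -1.76, SE 0.43, adjusted p = 0.0365, a call lost without arrested library 1). Dnm1l (DRP1, the fission GTPase) was higher at 152, 99.4 and 92.3 CPM in the arrested libraries and 51.4, 20.3 and 19.7 CPM in the het 2-cell libraries (log2 fold change 1.91, SE 0.46, adjusted p = 0.0343, and 0.058 without arrested library 1). Gdap1, an outer-membrane protein, was higher at 299, 210.2 and 252 CPM in the arrested libraries and 121, 60.5 and 82.3 CPM in the het 2-cell libraries. Of 49 genes of pyruvate, glycolysis and the TCA cycle, 4 were called higher and 1 lower, against the same shares of all genes, and 7 and 3 without both doubted libraries. The higher ones included Dlat, the E2 subunit of pyruvate dehydrogenase, at 103, 39.6 and 35 CPM in the arrested libraries and 16.1, 7.22 and 6.59 CPM in the het 2-cell libraries, and Pdp1, the phosphatase that activates that complex, at 24.7, 64.7 and 27.1 CPM in the arrested libraries and 8.47, 2.87 and 5.48 CPM in the het 2-cell libraries. Ogdh, a TCA cycle dehydrogenase subunit, was the lower one at 1.86, 7.8 and 10.02 CPM in the arrested libraries and 49.6, 33.6 and 24.1 CPM in the het 2-cell libraries, a call lost without het 2-cell library 1 (adjusted p = 0.0622). Among 48 autophagy and mitophagy genes, 4 were called lower and 0 higher, and 9 and 0 without both doubted libraries. Map1lc3b (LC3B), which is lipidated onto autophagosomes, was at 109.6, 889.9 and 417 CPM in the arrested libraries and 1282, 4906 and 5933 CPM in the het 2-cell libraries (log2 fold change -3.10, SE 0.71, adjusted p = 0.0301), and Gabarapl2, its homologue, at 48.6, 134 and 42.6 CPM in the arrested libraries and 166, 787 and 929.9 CPM in the het 2-cell libraries. Lamp2, of the lysosomal membrane, had 16.4, 83.9 and 45.4 CPM in the arrested libraries and 129, 399.5 and 312 CPM in the het 2-cell libraries.

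Early zygotic genes told the arrested libraries apart rather than the groups. Of 35 genes of 2-cell-stage activation tested, 1 was called higher (Rfpl4, described above) and 3 lower (1 without arrested library 1), where 2.55% and 3.82% of all genes were. In all, 11 were lower in every arrested than in every het 2-cell library (31.4% against 17.7% of all genes). Zscan4c (chr7:11005745-11010547), which acts on telomeres and chromatin in early embryos and embryonic stem cells, was at 3.81, 845 and 472 CPM in the arrested libraries and 649.8, 263 and 103 CPM in the het 2-cell libraries. Zscan4f had 7.86, 1319 and 732 CPM in the arrested libraries and 1008, 380.3 and 157 CPM in the het 2-cell libraries, and Zscan4d 3.97, 459.9 and 189.5 CPM in the arrested libraries and 382, 168 and 66.8 CPM in the het 2-cell libraries. In each of the 6 Zscan4 genes tested, arrested library 2 was the highest and arrested library 1 the lowest of the 6 libraries, and het 2-cell library 1 was the highest of its group. None of the 3 genes named was called (adjusted p = 0.877 for Zscan4c). WT 2-cell embryos had 113, 109.5 and 314 CPM of Zscan4c and WT 1-cell embryos 6.88, 4.72 and 2.42 CPM. Zfp352, a zinc-finger gene with a 2-cell peak, was at 4.13, 81.7 and 148 CPM in the arrested libraries and 245, 182 and 78.2 CPM in the het 2-cell libraries.

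Duxbl1, a double-homeobox gene, did separate the groups, at 25, 33 and 54.1 CPM in the arrested libraries and 159.5, 202 and 279 CPM in the het 2-cell libraries (log2 fold change -2.52, SE 0.59, adjusted p = 0.0316, and 0.06 without arrested library 1). All arrested libraries were above the WT 1-cell range of 8.65, 1.63 and 2.1 CPM. Sp110, a nuclear body protein gene, was at 95.2, 92.6 and 100.2 CPM in the arrested libraries and 226, 274 and 217 CPM in the het 2-cell libraries (log2 fold change -1.32, SE 0.32, adjusted p = 0.0359), with narrow spread in both groups; the call was lost in the fit of 15 libraries (adjusted p = 0.071). Tdpoz3, of a multicopy family, was barely detected, at 3.83, 2.61 and 1.75 CPM in the het 2-cell libraries and 0, 0.047 and 0 CPM in the arrested ones, and its call was lost without arrested library 1 (adjusted p = 0.067). The Zscan4, Tdpoz and Usp17l genes are near-copies, with uncertain counts.

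Stress, cell death and chromatin lists are read against 2.55% of all genes called higher and 3.82% lower. Those shares were 5.1% and 8.01% without both doubted libraries and 4.55% and 5.2% without het 2-cell library 1. In the fit of 15 libraries they were 3.85% and 4.55%. Of 55 stress and unfolded protein response genes, 1 was called higher and 3 lower, the latter with Eif2ak1, the heme-regulated eIF2α kinase, at 21.6, 42.8 and 29.9 CPM in the arrested libraries and 95.8, 157 and 177 CPM in the het 2-cell libraries (log2 fold change -2.19, SE 0.38, adjusted p = 0.0219). Of 47 p53 and cell death genes, 3 were called higher and 1 lower, and 5 and 3 without both doubted libraries; after Bcl2l10, Birc3, an inhibitor of apoptosis, had 362, 90.7 and 160 CPM in the arrested libraries and 41.1, 19.7 and 22.6 CPM in the het 2-cell libraries (log2 fold change 2.88, SE 0.54). Trp53inp1, a p53 target, was at 233, 114 and 186 CPM in the arrested libraries and 69.2, 56.2 and 75.5 CPM in the het 2-cell libraries, and its call was lost without arrested library 1 (adjusted p = 0.066). Of 36 antioxidant genes, 1 was called, Hmox2, a heme oxygenase, which was lower at 6.24, 29.2 and 12.9 CPM in the arrested libraries and 41.5, 116 and 134 CPM in the het 2-cell libraries. Of 62 DNA methylation and chromatin genes, 2 were called higher and 0 lower, and neither call held without arrested library 1: Uhrf1, which recruits DNMT1 to replicated DNA, was at 92.9, 23.6 and 54.3 CPM in the arrested libraries and 19.8, 11.9 and 15.4 CPM in the het 2-cell libraries, and Eed, of Polycomb complex 2, at 504, 191 and 127 CPM in the arrested libraries and 70.7, 85 and 85.9 CPM in the het 2-cell libraries (adjusted p = 0.09 and 0.1); that of Eed was also lost without het 2-cell library 1 (0.0612) and in the fit of 15 libraries (0.0513). The list's counts were 6 higher and 2 lower without het 2-cell library 1, 5 and 5 without both, and 7 and 1 in the fit of 15 libraries. Of 29 histone-list genes, 2 were called higher, H1foo and Slbp, and 4 lower, among them the H2A.Z gene H2afz at 228, 888 and 535 CPM in the arrested libraries and 1237, 2450 and 2873 CPM in the het 2-cell libraries. The lower count was 2 without arrested library 1 and 0 with DESeq2.

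How far the arrested and cleaved het embryos differ by another amount than WT 1-cell and WT 2-cell embryos was tested as a difference of differences over 12 libraries, which adds the genotype label and, for the 1-cell groups, the culture time. It called 1209 of 22730 genes (5.32%), 920 with a more positive difference (4.05%) and 289 with a more negative one (1.27%). The median over all genes was 0.41, so values are read against that shift. Among gained genes 681 were called, each with the het difference less negative than the WT one. Among cleared genes 198 were called, each with the het difference smaller than the WT one. Both sets were chosen for a large change in the same WT libraries that enter this contrast. That choice favours these directions, so no conclusion is drawn from them. Of the 13 mitochondrially encoded mRNAs, 7 were called, all more positive, with mt-Nd5 at 1.99 (adjusted p = 0.0368). Smc3, a cohesin subunit, was at 18.5, 15.6 and 20.2 CPM in the arrested libraries and 32.9, 40.6 and 56.2 CPM in the het 2-cell libraries, where WT 1-cell embryos had 290.2, 359 and 269.6 CPM and WT 2-cell embryos 40.44, 46 and 39.5 CPM. Its difference of differences was -4.12 (SE 0.48, adjusted p = 0.00451). Plat, tissue plasminogen activator, was at 24.2, 36 and 30.6 CPM in the arrested libraries and 11.7, 13.9 and 6.77 CPM in the het 2-cell libraries, where WT 1-cell embryos had 218, 215 and 456 CPM (-4.2, SE 0.62, adjusted p = 0.00847). For both genes the 3 arrested values lay close together and below every WT 1-cell library. The count was 4820 without arrested library 1 and 139 to 640 when any other library was left out.

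Arrested library 1 differed from arrested libraries 2 and 3 mainly by transcripts it lacked. Of 8068 genes whose mean reached 10 CPM, 1367 were more than 2 log2 units below both of the others and 102 above both. For arrested library 2 the numbers were 235 below and 231 above, and for arrested library 3 they were 27 and 41. In the het 2-cell group, library 1 had 177 below and 114 above, and libraries 2 and 3 had 15 and 57 below and 1 and 0 above. These values describe single libraries and carry no test.

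**Figure D4:**
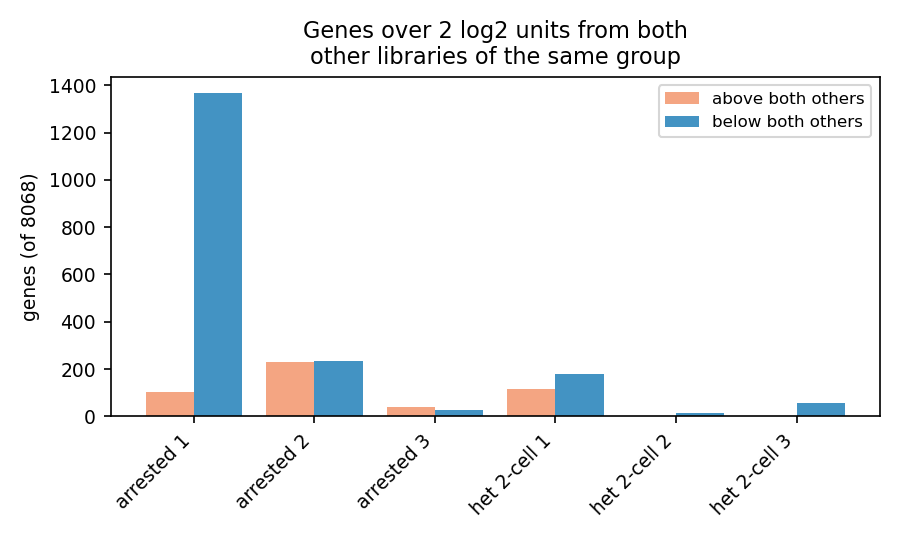
Number of genes (of 8068) whose log2(CPM + 1) lay more than 2 units above or below both other libraries of the same group. Arrested library 1 had 1367 genes below both others, the tallest bar, against 177 or fewer in each het 2-cell library.

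The largest gaps of arrested library 1 name what was missing. Selenos, a selenoprotein of the endoplasmic reticulum, was at 0, 212 and 131 CPM in the arrested libraries, and the WT 1-cell libraries had 0.0609, 0 and 0 CPM and the het 2-cell libraries 501, 1369 and 1354 CPM. Trim43b, a gene of a 2-cell-stage family, was at 1.22, 499.7 and 168 CPM, and Cstb, the protease inhibitor cystatin B, at 0, 158 and 78.9 CPM. With Zscan4c, Zscan4f and Prr23a1 (0, 223 and 67.3 CPM) these made the 6 largest gaps below. For the first 3 named, arrested library 1 was at or next to 0, as in WT 1-cell embryos, and arrested libraries 2 and 3 were far above it. The globin gene Hba-a1, a blood marker whose reads are shared with the near-copy Hba-a2, followed the same order at 3.65, 178 and 82.3 CPM in the arrested libraries and 79.2, 129 and 141 CPM in the het 2-cell libraries, and was at 180.5, 258 and 180 CPM in WT 2-cell embryos. Above both other arrested libraries, Nsmce2, a SUMO ligase of the SMC5/6 complex, was at 1589, 137 and 183 CPM, against 554, 525 and 456 CPM in WT 1-cell embryos. Vta1, of endosomal sorting, was at 1064, 145 and 103 CPM, and Sdcbp (syntenin) at 288, 34.8 and 36.9 CPM.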

How the data were processed

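The authors deposited raw read counts per gene in 1 table of 15 embryo libraries and 56196 genes; the table of 8 oocyte libraries was not used. Per the submitters' processing notes, the mm10 build, featureCounts 1.6.5, HISAT2 2.1.0 and Trim Galore 0.6.4 were used. Strand setting, multi-mapping reads and duplicates: not given in the sources used here. No molecular identifiers are named. Of 28 symbols turned into dates, 27 were restored; 54587 identifiers matched the name table. Positions are from a GENCODE annotation of mm10 and promoters from RefSeq (GRCm38.p6, 1 per symbol).

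Counts were tested with edgeR 4.0.16 (R 4.3.3; filterByExpr, TMM, quasi-likelihood F test, Benjamini-Hochberg over genes tested, called at an adjusted p under 0.05), with the 6 het libraries as the main fit. SE is derived from the F statistic. Depth was 16.06 to 31.89 M counts per het library. Levels are TMM-scaled CPM over 12 libraries; list medians come from the 6-library fit. DESeq2 1.42.0, RLE scaling, no filter, each library left out, fits of 12 and 15 libraries and a replicate block were alternatives. The tests were run on simulated data with the same spread in every group. Unequal spread between het and WT libraries was not simulated. The arrested and het 2-cell libraries with the same number deviated from their group means with correlations of 0.234, 0.168 and -0.098, so numbers were not treated as pairs.

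The members, lists and tests were chosen with earlier results of these data known. Named genes are Eif4enif1, called genes with the 12 highest and 12 lowest log2 fold changes (mean no lower than 10 CPM, non-overlapping groups, no predicted, clone or pseudogene symbol), up to 4 called genes per list by p, the 6 highest and 6 lowest differences of differences, and the 6 largest gaps of arrested library 1 in each direction. Since the main fit called none, naming from the fit of 12 libraries was added after the values were seen, and some of the genes so named are given only as counts. Bounds use a floor of 3 counts over a group and cover counting error only. There were 25 gene lists and 7 marker lists.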

Additional observations from a re-analysis of the deposited data

Results flagged for a closer look

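For 12 genes the contrast between arrested and het 2-cell embryos differed, by the interaction test, from that between WT 1-cell and WT 2-cell embryos. In 6 of them the WT 1-cell group held no count, so the difference of differences (log2) was computed from depth-pooled group levels with 3 counts in place of that group's 0. It was at least 11.2 for Prdx4, a peroxiredoxin, 10.9 for Crxos, 10.2 for Obox8, 10.1 for Pdxk, pyridoxal kinase, 10.1 for Rab20 and 9.64 for Guca1a (adjusted p from 0.00981 to 0.0361). With the libraries of a group weighted equally, an alternative chosen after seeing the data, these bounds were 9.47 to 10.9. Their levels in arrested libraries 1, 2 and 3 were 3.73, 176 and 41.4 CPM for Prdx4, 1.22, 144 and 63.3 CPM for Crxos and 0, 112 and 24.1 CPM for Pdxk, so arrested libraries 2 and 3 carried these zygotic transcripts and arrested library 1 had little or none.

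The other 6 were negative: -5.09 for Rpp38, a subunit of RNase P, -4.31 for Zar1, an oocyte RNA-binding protein, -4.2 for Plat, -4.12 for Smc3, -3.98 for Oog4 and -3.91 for Dnttip2 (adjusted p from 0.00451 to 0.0282). Rpp38 was at 1.14, 0.329 and 0.684 CPM in the arrested libraries and 3.88, 53.2 and 63.7 CPM in the het 2-cell libraries, and at 29.2, 30.7 and 28.6 CPM in WT 1-cell embryos. Dnttip2, a nucleolar protein, was at 14.2, 36.5 and 20.3 CPM in the arrested libraries and 41.4, 94.1 and 113 CPM in the het 2-cell libraries, and at 578, 559.6 and 472 CPM in WT 1-cell embryos. Oog4 and Zar1 were higher in each arrested than in each het 2-cell library, yet below every WT 1-cell library.

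These calls were not equally stable. All 12 were lost with the replicate block. Of the 17 alternatives for each gene, Prdx4, Guca1a, Plat, Smc3 and Dnttip2 lost theirs in that 1 alone, Crxos in 3, Obox8 in 6, Rpp38 in 11, and Pdxk, Rab20, Zar1 and Oog4 in 12 each, chiefly when 1 library was left out.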

How the results depend on the processing

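The fit of 6 libraries called 0 genes, and 0 to 0 when any library was left out, 0 with RLE scaling and 0 with the replicate block. It called 1 gene without the filter and 1335 with DESeq2, and joint fits called 1986 (15 libraries), 1271 (12), 936 (12, without arrested library 1), 2372 (without het 2-cell library 1) and 3176 (without both). Of 25 lists, 17 had a median below 0, and 16 to 20 in every alternative. The difference of differences called 1209 genes, 3969 with DESeq2, 2057 without the filter, 139 to 4820 when a library was left out and 0 with the replicate block. Genes of arrested libraries 1, 2 and 3 beyond both others numbered 1469, 466 and 68, but 3189, 2224 and 532 at a limit of 1, 730, 102 and 8 at 3, and 600, 173 and 11 at a pseudocount of 5. Stage positions moved by less than the SD among the libraries of their group under every alternative. That limit is wide, at 21.1 (cleared) and 36.19 (gained) percentage points in the arrested group. For example, arrested library 1 moved from 20.8% to 13.7% for cleared genes with RLE scaling. Arrested library 3 moved from 47.9% to 38.6% for gained genes at a pseudocount of 5. Of 111 named log2 fold changes, only that of Eif4enif1 turned sign, to -0.12 (6 libraries) and -0.13 (12) without arrested library 1 (0.861 without arrested library 2). The 12-library fit called 104, which follows from naming genes by their call in that fit, and DESeq2 called 80. The median of all genes was -0.07 with TMM, -0.04 with RLE and -0.14 in the fit of 12 libraries. Where no cause is stated for a change, the cause was not tested. With 3 amplified libraries a group, precision is limited by the spread between libraries more than by depth.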

Other observations

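A few transcripts placed the arrested embryos outside both WT stages. Of 8425 genes whose mean over 12 libraries reached 10 CPM, 18 were more than 2-fold lower in every arrested library than in each of the 9 other libraries, and 3 more than 2-fold higher, on the log2(CPM + 1) scale. This set was chosen on these values, so it carries no test. Xpa, a nucleotide excision repair protein, was at 0, 0.893 and 2.36 CPM in the arrested libraries and at 10.85 CPM or more in each other library. Slc25a3, the mitochondrial phosphate carrier, was at 30.8, 42.2 and 35.8 CPM against 96.07 CPM or more elsewhere, and Ppid, a cyclophilin, at 18.5, 26.6 and 16.7 CPM against 66.95 CPM or more. The others included Rpf1, Rpp38, Cstf1, a factor of mRNA 3′-end cleavage, Rcc1, the exchange factor of Ran, Vrk1, a chromatin kinase, and Med11, a Mediator subunit.

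In the opposite direction, Tmod2, a tropomodulin that caps actin filaments, was at 35.4, 38.1 and 42.9 CPM in the arrested libraries. Its highest value in any other library was 16.16 CPM, in het 2-cell library 3. The predicted genes Gm19276 and Gm15564 were the other higher ones.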
